A study of Mus musculus with 4 samples.

Results

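The genes of cholesterol synthesis and the sterol response were followed in primary mouse vascular smooth muscle cells (VSMCs) after knockdown of Mettl14. They comprised 33 of the 48587 genes in the count table and were chosen by symbol for their known roles: 18 enzymes that build cholesterol, 5 genes of the SREBP switch, 7 genes of sterol transport, efflux and storage, and 3 genes of fatty acid synthesis. All 33 were found and all 33 passed the filter on low counts, which left 18916 genes for testing. Poly-A RNA was sequenced from 2 libraries of VSMCs carrying a hairpin against Mettl14 (shMettl14) and 2 libraries carrying a negative control hairpin (shCTR), in each case labelled A and B. Mettl14 encodes a subunit of the methyltransferase that places N6-methyladenosine (m6A) on mRNA.

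The cells of both groups had grown out of the descending aorta of young adult C57BL/6J mice, were transduced in culture with a lentiviral vector, with no other genetic change named in the methods. The control hairpin targets a plant microRNA, and its vector also carries GFP. A lone Mettl14 hairpin sequence stands for the knockdown, and the sources used here do not say whether A and B were separate isolations of cells, so p-values measure only the spread between these libraries, which may be technical. Mettl14 itself had 18.1 and 19.9 CPM (counts scaled to library size) in shCTR A and B and 4.60 and 4.37 CPM in shMettl14 A and B, which left 23.6% of the control mean. Its log2 fold change was -2.08 (SE 0.25, n = 2 per group), yet its adjusted p was 1.0 in the edgeR quasi-likelihood fit after adjustment by Benjamini and Hochberg's method over all genes tested. DESeq2 called it, with an adjusted p of 3.05e-07.

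Cells make cholesterol from acetyl-CoA. A first run of enzymes leads through mevalonate to farnesyl diphosphate, and a second run turns that into squalene, lanosterol and cholesterol. When membrane cholesterol is low, the escort protein SCAP carries the SREBP transcription factors to the Golgi, where they are cut free and switch on the whole route, and when cholesterol is high the INSIG proteins hold SCAP in the endoplasmic reticulum. Excess sterol instead activates the LXR receptors, which raise the export pumps ABCA1 and ABCG1. In the artery wall, VSMCs that take up cholesterol can turn into foam cells, so the balance of synthesis, storage and efflux in this cell type is of interest in vascular disease.

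The libraries held 114343653 to 124815868 counts, and 21736 (shCTR B) to 25268 genes had at least 1 count. Smooth muscle markers were abundant, with a summed level of 6796 and 5763 CPM in shCTR A and B and of 4441 and 4802 CPM in shMettl14 A and B. The fitted difference was below 0 for all 6 smooth muscle markers (48.8% of genes tested), although Lmod1 was higher within letter B, and the groups did not overlap for Acta2 and Tagln (13.3% of genes tested were lower without overlap). The aortic endothelium was scraped off before the cells grew out, but endothelial markers were abundant too, with Pecam1 at 477 to 820 CPM and Cdh5 at 508 to 818 CPM, and shCTR B had the highest summed endothelial level, 1949 CPM, against 1253 to 1426 CPM in the other libraries. The summed fibroblast level, most of it from Dcn, was 84.4 and 87.5 CPM in the A libraries and 171 and 129 CPM in the B libraries, while Pdgfra was lower in B under either hairpin. The summed level of leukocyte markers was 12.4 to 17.5 CPM, and that of adipocyte markers, nearly all from Fabp4, 8.36 to 9.68 CPM, with Adipoq at 0 to 4 counts. The part of these markers in the sterol gene results was not tested, and in bulk RNA fewer cells of a type cannot be told apart from less RNA per cell.

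The promoters of the sterol genes were read as a feature that the choice of genes did not use. Regulation by SREBP is known to rely on a sterol regulatory element (SRE) helped by the factors NF-Y, which binds CCAAT, and Sp1, which binds a GC box. The RefSeq promoter windows (GRCm38.p6, 250 bases before to 50 bases after a gene's start) matched 25 of the 33 genes with 33 windows, since 5 genes had more than 1. The search covered 4 motifs on both strands, and a gene was counted where any of its windows held the letters. The letters CCAAT were found in 22 of the 25 (88.0%), against 41.1% of all 27025 genes with a window searched and 42.2% of the 12034 tested genes among them. The GC box GGGCGG was found in 23 of the 25 (92.0%), against 38.2% of all genes and 64.6% of tested genes. None of these shares was matched for level of expression. A mean of at least 5 CPM was reached by 31 of the 33 sterol genes and by 10550 of the 18916 genes tested. A window that held both motifs was found for 19 of the 25 genes (76.0%) and for 25.0% of tested genes. The E-box CACGTG was found in 6 of the 25 (24.0%), against 8.09% of all genes and 11.0% of tested genes; these were Abca1, Dhcr7, Hsd17b7, Insig1, Sc5d and Scap. The SRE core TCACNCCAC was found in 1 of the 25, Hmgcs1, and in 1.44% of all genes. Some windows overlap annotated exons. All 250 bases before the start do so for Idi1 and Tm7sf2, and for the Dhcr7 windows with the E-box and with CCAAT boxes at -85 and -49. For Msmo1, 214 of these bases do. A match describes these letters in this window and is not a binding site by itself.

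The 250 bases before the start are shown for 4 genes that span the range, 5′ to 3′ on the coding strand, with SRE core, CCAAT box (read as CCAAT or ATTGG) and E-box letters in capitals and the GC box unmarked. Hmgcs1 (chr13:119690101-119690350, plus strand) shows the SRE core, whose first base lies at -137 from the start, between CCAAT boxes at -237, -176 and -45. Mvd (chr8:122443423-122443672, minus strand) has CCAAT boxes at -60 and -27. Fasn (chr11:120824548-120824797, minus strand) has CCAAT boxes at -90, -62 and -59, of which the last pair overlap on opposite strands, and no GC box. Abca1 (chr4:53159896-53160145, minus strand), an LXR target, has no CCAAT box and an E-box at -147.
Hmgcs1: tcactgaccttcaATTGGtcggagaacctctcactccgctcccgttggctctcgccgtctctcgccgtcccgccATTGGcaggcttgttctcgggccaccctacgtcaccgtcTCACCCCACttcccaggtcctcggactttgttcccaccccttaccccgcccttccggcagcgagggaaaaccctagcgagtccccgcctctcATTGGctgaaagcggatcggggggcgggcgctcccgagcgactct
Mvd: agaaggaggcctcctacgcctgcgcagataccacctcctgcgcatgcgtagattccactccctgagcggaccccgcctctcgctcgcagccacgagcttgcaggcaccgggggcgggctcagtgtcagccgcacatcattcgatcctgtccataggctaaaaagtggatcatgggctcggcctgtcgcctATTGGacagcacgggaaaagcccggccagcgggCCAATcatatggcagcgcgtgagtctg
Fasn: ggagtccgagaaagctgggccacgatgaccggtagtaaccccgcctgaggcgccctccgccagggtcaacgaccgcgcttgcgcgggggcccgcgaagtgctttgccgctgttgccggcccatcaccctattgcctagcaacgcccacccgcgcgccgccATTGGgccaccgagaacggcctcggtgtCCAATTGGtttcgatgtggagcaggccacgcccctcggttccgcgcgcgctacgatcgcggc
Abca1: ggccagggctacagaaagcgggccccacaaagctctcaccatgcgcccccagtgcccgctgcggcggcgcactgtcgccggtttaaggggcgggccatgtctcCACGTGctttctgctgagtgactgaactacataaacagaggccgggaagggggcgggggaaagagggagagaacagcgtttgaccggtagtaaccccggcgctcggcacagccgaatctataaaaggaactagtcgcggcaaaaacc

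The first question was how abundantly each gene of the route was transcribed. Per kilobase of exon, the highest mean level over the 4 libraries was that of Npc2, the soluble lysosomal protein that hands cholesterol to NPC1, at 78.1 CPM per kb, followed by the stearoyl-CoA desaturase Scd2 at 59.8 CPM per kb and fatty acid synthase, Fasn, at 26.1 CPM per kb. The highest of the synthesis enzymes on this scale were Sqle, the squalene epoxidase, at 16.3 CPM per kb and Hmgcs1, which makes HMG-CoA, at 15.9 CPM per kb. The lowest of the 33 were Abcg1, a sterol export pump, at 0.075 CPM per kb and Fdps, farnesyl diphosphate synthase, at 0.49 CPM per kb. All 4 libraries gave Fdps a low level although its neighbours in the route were well covered. Fdps shares near-identical stretches with 5 other annotated genes, such as Gm3571, which matches 76.8% of its longest coding transcript at 98.9% identity and had 5 to 19 counts, and 26.7% of its exon bases overlap another gene on the same strand. How the counting treated reads that fit several places is not given in the sources used here, so the Fdps level is uncertain. The same holds in part for Acat2, whose copy Acat3 is 97.7% identical over 65.6% of the transcript and had 153 to 203 counts. Acat2 also matches Tcp1, which had 22242 to 33593 counts, at 98.7% identity over 19.8% of the transcript. For Fdft1, 18.3% of exon bases lie opposite another gene, and the 20.9% of its transcript that match at 100% identity belong to Ctsb, which had 98545 to 119185 counts.

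**Figure D1:**
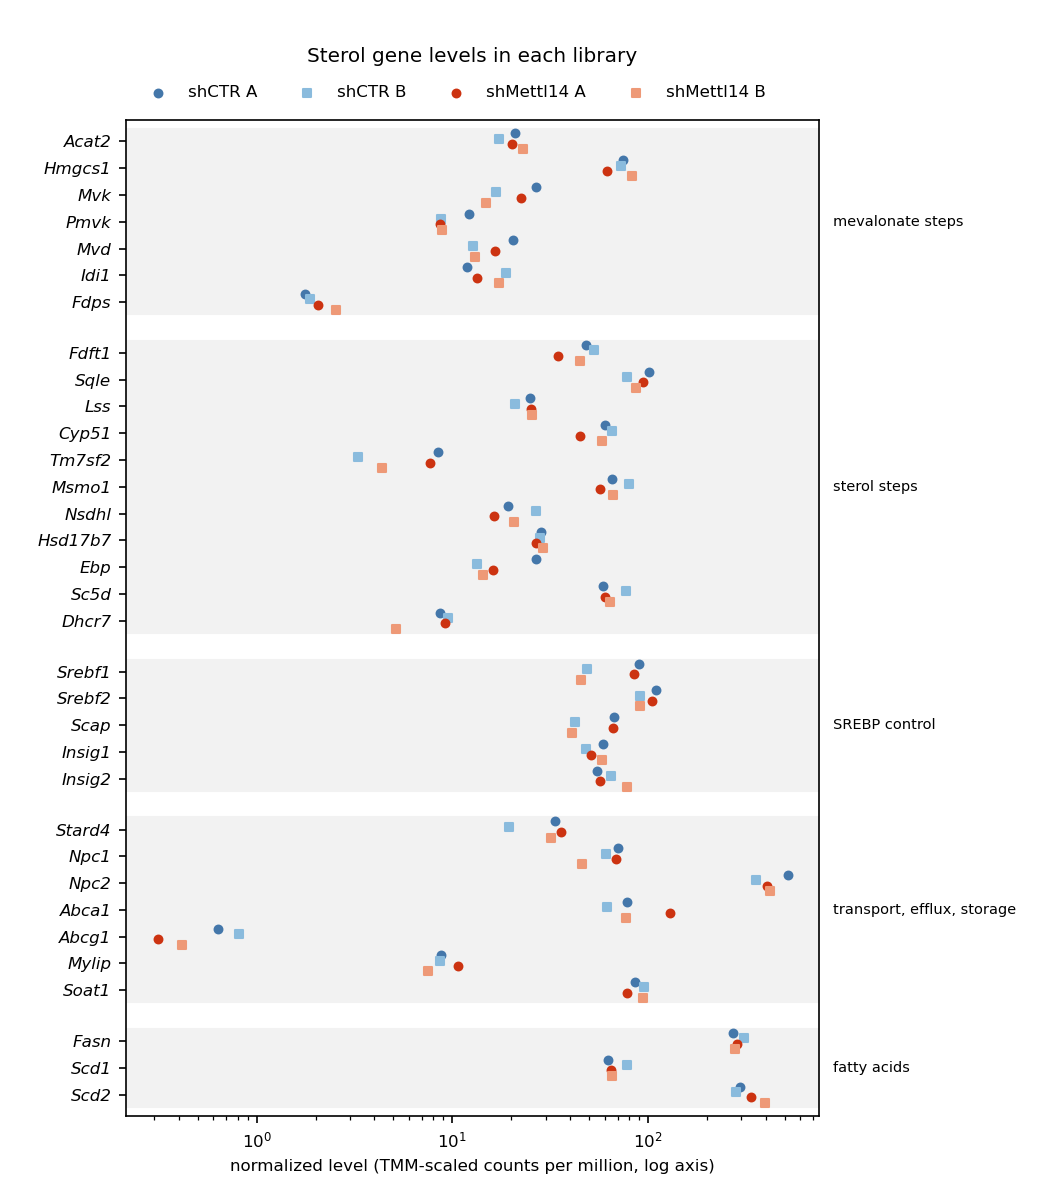
Normalized level (TMM-scaled CPM, log axis) of the 33 sterol genes in each library, grouped by role. Circles are the A libraries and squares the B libraries, blue for shCTR and red for shMettl14; for most genes the colours interleave, and Abcg1 and Fdps lie lowest.

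The main comparison asked which of these genes differed between shMettl14 and shCTR. No gene of the 33 passed edgeR's quasi-likelihood test at an adjusted p under 0.05, as for 0 of the 18916 genes tested (0.0%), and every adjusted p was 1.0. None had an unadjusted p under 0.05, against 1.01% of genes tested on the lower side and 0.656% on the higher side, and the smallest p of the 33, that of Abcg1, was 0.0959. DESeq2 likewise gave 0 of the 33 at either threshold. Of the 18916 genes tested, DESeq2 gave 4 with an adjusted p under 0.05 (5 over all genes in its own fit) and 345 with an unadjusted p under 0.05. The fitted difference was below 0 for 22 genes (66.7%) and above 0 for 11, with a median log2 fold change of -0.05, against 48.8% below 0 and a median of 0.01 over all genes tested. Among genes with a mean of at least 5 CPM, 67.7% of the 31 sterol genes and 55.1% of all 10550 genes were below 0. The differences were small: 31 of the 33 were within 0.5 on the log2 scale (93.9%, against 78.3% of genes tested), but at a mean of at least 5 CPM the shares were close, 96.8% of the sterol genes and 93.8% of all genes. The standard error exceeded the difference for 24 of the 33 and for 13865 of the 18916 genes tested. The 95% interval lay within 1 log2 unit on either side of 0 for 23 genes, and for the other 10 a larger difference lies within the interval.

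Groups that did not overlap were no more common here than elsewhere. Both shMettl14 libraries lay below both shCTR libraries for 3 genes, Fdft1, Cyp51 and Abcg1 (13.3% of genes tested did so), and above them for 3 genes, Fdps, Lss and Scd2 (14.7% of genes tested). Within each letter, shMettl14 was below shCTR in both A and B for 11 genes (27.6% of genes tested) and above it in both for 6 genes (30.0% of genes tested). The letters pointed in opposite directions for the other 16 genes (48.5%, against 42.4% of genes tested), and 10 of these were lower in A and higher in B.

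**Figure D2:**
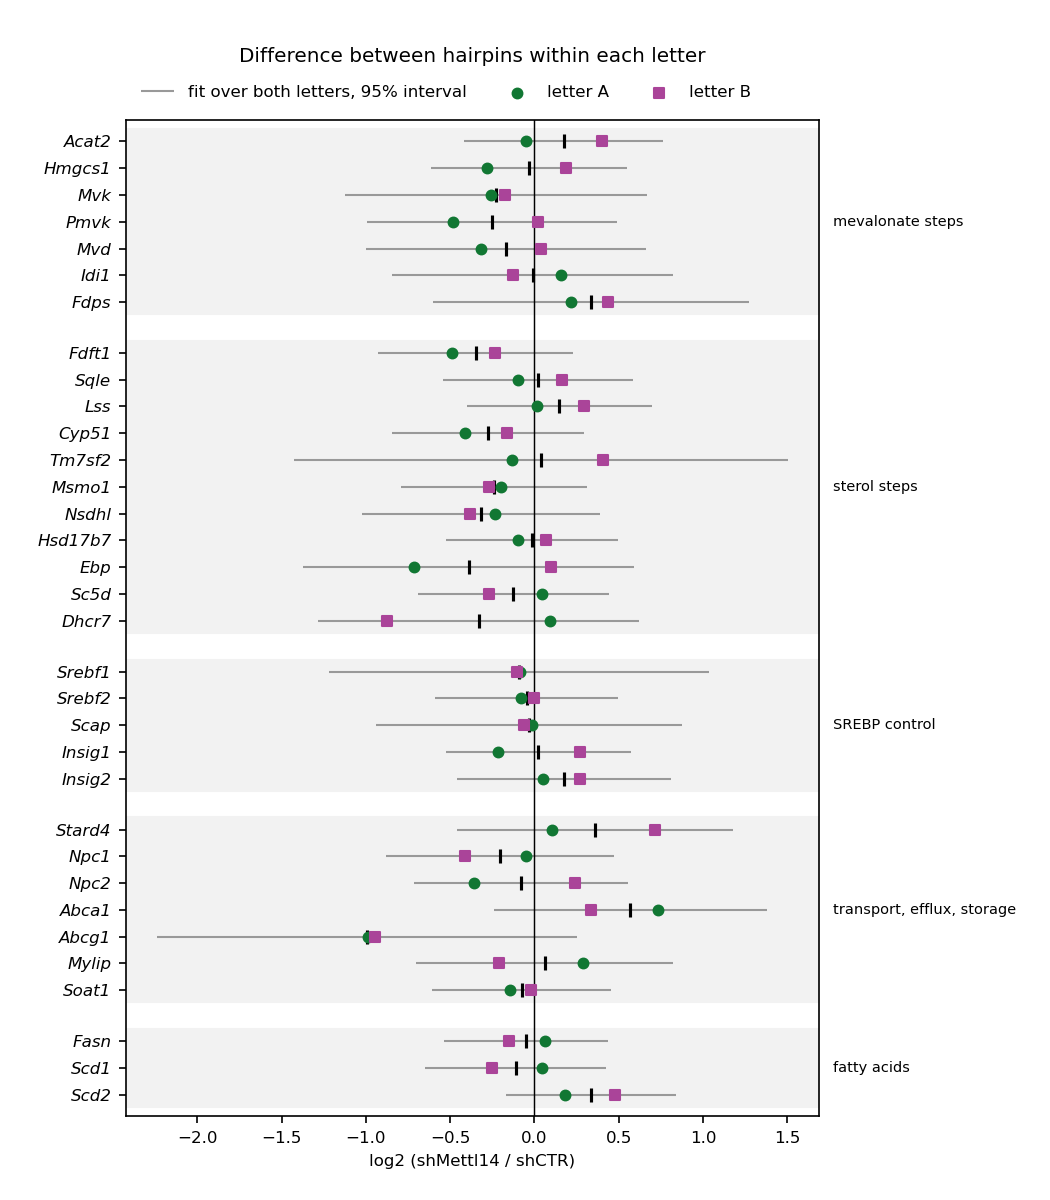
Log2 ratio of shMettl14 to shCTR for each sterol gene, within letter A (green circles) and within letter B (purple squares). The black tick is the fitted difference over all 4 libraries and the grey line its 95% interval; every interval crosses 0, and the symbols fall on opposite sides of 0 for 16 genes.

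Of the 7 enzymes of the mevalonate run, 5 had a ratio below 0 in A and 2 in B, a difference between letters that was not tested. The median log2 ratio of these enzymes was -0.26 in A and 0.04 in B, and their summed level was 169 and 149 CPM in shCTR A and B and 145 and 162 CPM in shMettl14 A and B. In the fit over all 4 libraries, 5 had a difference below 0 and none had an unadjusted p under 0.05. Hmgcs1 had 74.7 and 72.5 CPM in shCTR and 61.4 and 82.5 CPM in shMettl14, so that its lowest and its highest library were both knockdown libraries. Pmvk, phosphomevalonate kinase, had 12.2 CPM in shCTR A and 8.69 to 8.83 CPM in the other 3 libraries. Mvd, which decarboxylates mevalonate diphosphate, had 20.5 and 12.8 CPM in shCTR and 16.5 and 13.1 CPM in shMettl14, with both A libraries above both B libraries. Mvk, mevalonate kinase, was the lone gene of this run below control in both letters, with ratios of -0.26 and -0.17. The fitted differences of Acat2, which joins acetyl-CoA units, and Idi1, which isomerizes isopentenyl diphosphate, were 0.17 (SE 0.23) and -0.01 (SE 0.32). That of Acat2 was 0.036 without shCTR B and 0.32 without shCTR A.

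Fdps was the gene of this run whose groups did not overlap. It had 1.77 and 1.88 CPM in shCTR (201 and 203 counts) and 2.06 and 2.55 CPM in shMettl14 (245 and 331 counts), so both knockdown libraries were higher. The log2 fold change was 0.34 (SE 0.37, 95% interval -0.60 to 1.27), with an unadjusted p of 0.399 in the edgeR test, and it was 0.18 without shMettl14 B. Its counts carry the uncertainty given above.

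The 11 enzymes from squalene onwards had the lowest median difference of the roles, -0.24. Of these, 8 were below 0 (72.7%, against 48.8% of genes tested and 55.1% of those with a mean of at least 5 CPM). The median ratio was below 0 in both letters (-0.13 in A and -0.16 in B). Their summed level was 451 and 455 CPM in shCTR and 394 and 421 CPM in shMettl14. Both knockdown sums were below both control sums, but a sum weighs abundant genes most and has no share over all genes beside it. By gene, 2 of the 11 were lower and 1 higher without overlap (13.3% and 14.7% of genes tested). The letters had opposite signs for 6 of the 11 (54.5%, against 42.4% of genes tested). No enzyme of the run had an unadjusted p under 0.05, and the smallest p was 0.183. Fdft1, squalene synthase, which commits farnesyl diphosphate to sterols, had 48.5 and 53.0 CPM in shCTR and 34.6 and 45.2 CPM in shMettl14. The knockdown libraries were lower without overlap, with a difference from control of -28.7% in A and -14.8% in B. The log2 fold change was -0.35 (SE 0.23, 95% interval -0.93 to 0.23), and it was -0.17 without shMettl14 A and -0.55 without shMettl14 B.

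Cyp51, the demethylase that acts on lanosterol, had 60.0 and 65.4 CPM in shCTR and 45.1 and 58.5 CPM in shMettl14. Its groups did not overlap, but shMettl14 B lay close to shCTR A. The log2 fold change was -0.28 (SE 0.22, 95% interval -0.84 to 0.29), with an unadjusted p of 0.268 in the edgeR test, and it was -0.098 without shMettl14 A and -0.47 without shMettl14 B. Msmo1 and Nsdhl, which act in the removal of the methyl groups of lanosterol, were also below control in both letters, with ratios of -0.20 and -0.27 for Msmo1 and -0.24 and -0.38 for Nsdhl. For both genes the groups overlapped.

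Lss, lanosterol synthase, lay on the other side. It had 25.0 and 20.9 CPM in shCTR and 25.2 and 25.7 CPM in shMettl14, so the libraries apart from shCTR B were nearly level. The log2 fold change was 0.15 (SE 0.21, 95% interval -0.40 to 0.70), and it was 0.022 without shCTR B and 0.29 without shCTR A. Ebp, the sterol isomerase, had the largest fitted difference of the run, and 1 library set it. It had 26.6 CPM in shCTR A and 13.4 CPM in shCTR B, and 16.2 and 14.3 CPM in shMettl14, so the knockdown libraries lay between the controls. The log2 fold change was -0.39 (SE 0.38, 95% interval -1.37 to 0.59), and it was 0.20 without shCTR A and -0.81 without shCTR B, where the unadjusted p was 0.0281 and the adjusted p 0.942 in the edgeR test.

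The remaining enzymes of the run showed no common direction. Dhcr7, a reductase of the last steps, had 8.65, 9.47 and 9.23 CPM in shCTR A, shCTR B and shMettl14 A and 5.17 CPM in shMettl14 B. Its ratio was therefore 0.09 in A and -0.87 in B. Tm7sf2, a sterol reductase, had 8.47 and 7.71 CPM in the A libraries of shCTR and shMettl14 and 3.30 and 4.38 CPM in the B libraries, a split by letter. The ratios of Sqle, Hsd17b7, a ketoreductase, and Sc5d, a desaturase, lay between -0.27 and 0.17 and had opposite signs in the letters.

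The genes of the SREBP switch were the closest to level. The 5 fitted differences ran from -0.09 to 0.18 with a median of -0.03, no groups were separate, and the p-values started at 0.509. Srebf2, the SREBP gene most tied to cholesterol, had 111 and 91.1 CPM in shCTR and 105 and 90.7 CPM in shMettl14, so the B libraries were nearly equal. Srebf1, more tied to fatty acids, had 90.0 and 48.7 CPM in shCTR and 84.9 and 45.3 CPM in shMettl14. Scap had 66.8 and 42.5 CPM in shCTR and 66.1 and 40.7 CPM in shMettl14. These 3 genes had ratios between -0.11 and -0.01 in either letter, whereas the ratio of B to A reached -0.91 on the log2 scale. The intervals remain wide for the fit over all 4 libraries, from -1.22 to 1.04 for Srebf1, a fit that counts the letter difference as spread. Insig1, itself an SREBP target, had 59.2 and 48.2 CPM in shCTR and 51.1 and 58.1 CPM in shMettl14, with ratios of -0.21 and 0.27. Insig2 had 54.6 and 64.9 CPM in shCTR and 56.7 and 78.4 CPM in shMettl14, and was the lone gene of the switch above control in both letters.

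Sterol transport and efflux held the largest differences of the 33 genes. Abca1, which loads cholesterol onto apolipoprotein A-I, had 78.1 and 61.6 CPM in shCTR and 130 and 77.6 CPM in shMettl14 (6648 to 15394 counts). It was higher within each letter, by 66.1% in A and 26.0% in B, while shMettl14 B lay just under shCTR A, so the groups overlapped. The log2 fold change was 0.57 (SE 0.32, 95% interval -0.24 to 1.38), with an unadjusted p of 0.131 in the edgeR test, and it was 0.15 without shMettl14 A and 0.90 without shMettl14 B. In these fits, which ignore the letters, the size of the difference thus depended on shMettl14 A. With the letters as a replicate block, the log2 fold change of Abca1 was 0.53 (SE 0.17, adjusted p of 0.336 in edgeR's test).

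Abcg1, which exports cholesterol to high-density lipoprotein, lay in the opposite direction at a very low level. It had 0.634 and 0.815 CPM in shCTR (72 and 88 counts) and 0.312 and 0.415 CPM in shMettl14 (37 and 54 counts). Both knockdown libraries were lower, with a difference from control of -50.9% in A and -49.0% in B. The log2 fold change was -0.99 (SE 0.48, 95% interval -2.24 to 0.25), with an unadjusted p of 0.0959 in the edgeR test, and it ranged from -1.2 to -0.80 when each library in turn was left out. Of all genes tested, 93.1% had a smaller absolute difference. Abca1 and Abcg1 are both textbook LXR targets. Their fitted differences had opposite signs, with intervals that both cross 0, and the part of LXR was not tested.

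Stard4, which moves cholesterol between membranes and is an SREBP target, had 33.6 and 19.5 CPM in shCTR and 36.1 and 32.1 CPM in shMettl14 (2108 to 4292 counts). It was shCTR B that stood apart, and the other 3 libraries were nearly level. The log2 fold change was 0.36 (SE 0.32, 95% interval -0.46 to 1.18), and it was 0.02 without shCTR B and 0.81 without shCTR A, where the unadjusted p was 0.027 and the adjusted p 0.690 in the edgeR test. Npc1, which passes cholesterol out of the lysosome, had 46.1 CPM in shMettl14 B and 61.3 to 70.7 CPM in the other libraries. Npc2 had 516 CPM in shCTR A and 357 to 422 CPM in the others. Mylip, a ubiquitin ligase that limits lipoprotein uptake, had ratios of 0.29 and -0.21, and Soat1, which stores cholesterol as esters, had ratios of -0.14 and -0.02, so that neither stood apart from control.

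**Figure D3:**
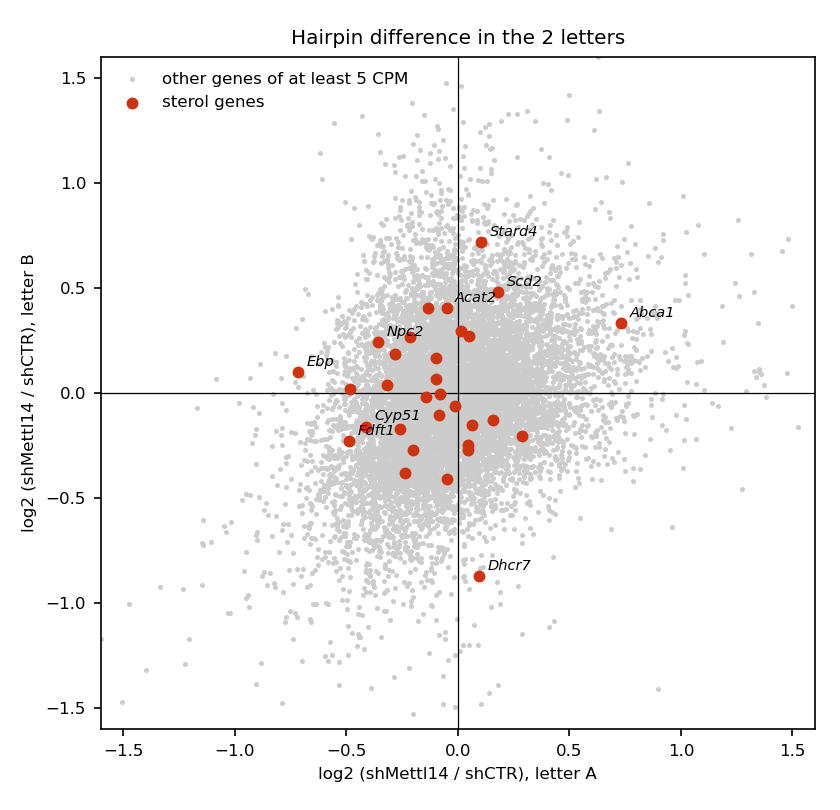
Log2 ratio of shMettl14 to shCTR within letter A (horizontal) against the same within letter B (vertical), for the 31 sterol genes with a mean of at least 5 CPM (red) among 10550 genes (grey), of which 27 lie outside the axes. Abca1, Scd2 and Stard4 are above 0 on both axes, Fdft1 and Cyp51 below 0 on both, and Ebp and Dhcr7 lie farthest out among those with opposite signs.

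Of the 3 genes of fatty acid synthesis, Scd2, the desaturase that makes monounsaturated fatty acids, had separate groups. It had 295 and 283 CPM in shCTR and 335 and 394 CPM in shMettl14 (30582 to 51292 counts). Both knockdown libraries were higher, by 13.4% in A and 39.3% in B. The log2 fold change was 0.33 (SE 0.20, 95% interval -0.17 to 0.84), with an unadjusted p of 0.149 in the edgeR test, and it ranged from 0.22 to 0.45 when each library in turn was left out. Scd1, which encodes a related desaturase and matches Scd2 at 95.5% identity over 623 bases, had 62.5 and 78.2 CPM in shCTR and 64.5 and 65.8 CPM in shMettl14. Fasn had 272 and 308 CPM in shCTR and 284 and 277 CPM in shMettl14. For Scd1 and Fasn shCTR B was the highest library and the groups overlapped, with fitted differences of -0.11 (95% interval -0.65 to 0.43) and -0.05 (95% interval -0.54 to 0.44).

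Some sterol genes differed between the A and B libraries under either hairpin, as did genes at large. The level was lower in B under both hairpins for 12 of the 33 genes and for 6931 of the 18916 genes tested, which are close shares. The absolute log2 difference between shCTR A and shCTR B exceeded the fitted hairpin difference for 25 of the 33 genes (75.8%), a share near the 71.8% of genes tested, where a difference of single libraries is set against a difference of means. The log2 ratio of B to A for Srebf1 was -0.89 under shCTR and -0.91 under shMettl14. In the same order this ratio was -0.65 and -0.70 for Scap, -1.35 and -0.81 for Tm7sf2 and -0.67 and -0.59 for Mvk, all lower in B. Idi1 was higher in B, with ratios of 0.66 and 0.37. For these 5 genes the letter difference kept its sign under either hairpin. For Ebp and Stard4 it was large under shCTR alone, where the ratio of B to A was -0.99 and -0.78, against -0.18 and -0.17 under shMettl14. Dhcr7 had a ratio of 0.13 under shCTR and of -0.84 under shMettl14. The fibroblast marker Dcn was higher in B under either hairpin (log2 ratios of 1.23 and 0.73) and Pdgfra lower (-0.48 and -0.82). The library shCTR B had the fewest detected genes and the highest level of 5 of the 6 endothelial markers, Tie1 being the exception. The labels do not say what the letters mark, and the part of cell make-up in these differences was not tested.

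**Figure D4:**
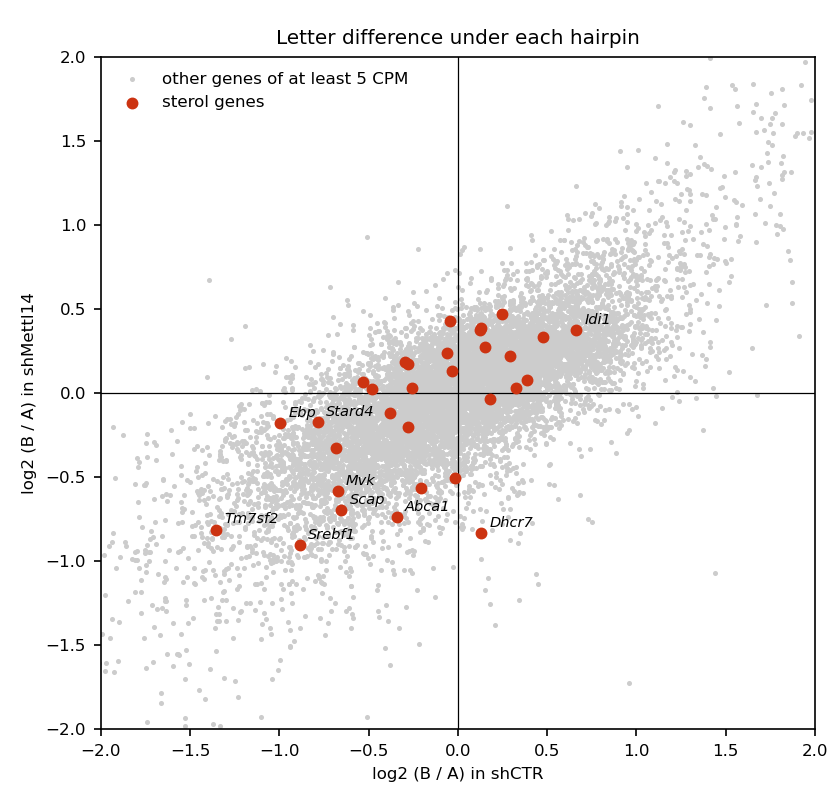
Log2 ratio of library B to library A under shCTR (horizontal) against the same under shMettl14 (vertical), for the 31 sterol genes with a mean of at least 5 CPM (red) among 10550 genes (grey), of which 189 lie outside the axes. Srebf1, Scap, Tm7sf2 and Mvk are well below 0 on both axes, Idi1 is above 0 on both, and Dhcr7 is below 0 under shMettl14 only.

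Other genes of the same control were read from lists that leave out the 33. Of 21 further genes of the SREBP pathway, 9 were below and 12 above 0, with a median of 0.04, and none passed the adjusted test. Gpam, the acyltransferase that starts glycerolipid synthesis, had an unadjusted p under 0.05 in edgeR's test, with 13.1 and 14.7 CPM in shCTR and 24.3 and 18.9 CPM in shMettl14. Its groups did not overlap, and the log2 fold change was 0.63 (SE 0.25, unadjusted p of 0.0491 and adjusted p of 1.0 in edgeR's test). In DESeq2 the unadjusted p of Gpam was 0.05125, above the threshold. Acly, which makes cytosolic acetyl-CoA for sterols and fatty acids, had 200 and 225 CPM in shCTR and 151 and 171 CPM in shMettl14. Rnf145, a sterol-regulated ubiquitin ligase, had 160 and 138 CPM in shCTR and 111 and 111 CPM in shMettl14. The knockdown libraries of these genes were lower without overlap, with log2 fold changes of -0.40 (unadjusted p of 0.0994) and -0.42 (unadjusted p of 0.0815) in edgeR's test. The groups were also separate for Erlin1 (-0.09) and for Acss2 (0.24), which made 3 genes lower and 2 higher without overlap of the 21, beside 13.3% and 14.7% of genes tested.

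Of 15 genes of LXR, oxysterol and cholesterol handling, 6 were below and 9 above 0, with a median of 0.09, and none passed the adjusted test. Osbp, the oxysterol-binding protein that exchanges cholesterol for phosphoinositide between the endoplasmic reticulum and the Golgi, had 71.9 and 87.3 CPM in shCTR and 46.4 and 50.7 CPM in shMettl14. Both knockdown libraries were well below both controls, with a log2 fold change of -0.71 (SE 0.21, 95% interval -1.25 to -0.18, unadjusted p of 0.0183 and adjusted p of 1.0 in edgeR's test). This was a larger fitted difference than that of 32 of the 33 sterol genes. The groups were also separate for Lipa, the lysosomal lipase that frees cholesterol from esters (-0.21), for Lpcat3 (-0.15) and for Nceh1, a cholesteryl ester hydrolase (0.25), which made 3 genes lower and 1 higher without overlap of the 15, beside the same 13.3% and 14.7% of genes tested.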

How the data were processed

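Poly-A RNA from 4 libraries (2 per group) was made into TruSeq Stranded libraries and sequenced as paired ends. The authors aligned reads to mm10 (GRCm38.p6, Ensembl version 86) by STAR and summed them over genes by featureCounts; the deposited table holds these raw counts. Tool versions, the strand setting and the handling of reads with several matches are not given in the sources used here. Groups were taken from the labels.

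Counts were fitted across all genes with edgeR 4.0.16 (R 4.3.3): TMM scaling, filterByExpr, robust quasi-likelihood fit, no block, Benjamini-Hochberg adjustment over 18916 genes and a threshold of 0.05. Intervals of 95% come from the fitted standard error. CPM are TMM-scaled; ratios within a letter used a prior count of 2. DESeq2 1.42.0, other scalings and filters, a replicate block and leaving out each library were alternatives. Exon lengths, positions and overlaps come from GENCODE M21; near-identical copies were searched with BLAST+ 2.17.0 (at least 95% identity over 300 bases); promoter windows are from RefSeq. With at least 114343653 counts a library, counting error is small except for Abcg1 and Fdps.

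The genes and lists were chosen with earlier results of these data known, and are described by counts and medians, without a test of the list. Values in every library are given for sterol genes with an unadjusted p under 0.05, with groups that do not overlap, or among the 5 largest differences; other sterol genes shown in full are examples by role. Of other genes that met the first conditions, Gpam, Osbp, Acly and Rnf145 are given in full and others by fold change or name, apart from markers, which are given as sums with examples.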

Additional observations from a re-analysis of the deposited data

How the results depend on the processing

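No sterol gene passed the adjusted test under any of the 10 alternatives. Over all genes, DESeq2 called 5 (Atp6v1a, Cbfb, Chst12, Mettl14 and Myh6), the replicate block 9 (Mettl14 among them, adjusted p of 0.00393 in edgeR), and leaving out each library 0 to 1 (Alb, without shCTR B), named after their values were seen; the other alternatives called 0. The letters are not said to mark a shared culture, so the block is an alternative only: same-letter libraries deviated together (r = 0.58 across 18916 genes, which are not independent replicates), and the block moved the sterol genes with an unadjusted p under 0.05 from 0 to 3 (Fdft1, Stard4 and Abca1, adjusted p of 0.478, 0.483 and 0.336 in edgeR) and all such genes from 315 to 1941. Counts with an unadjusted p were added after seeing the data; leaving out each library gave 0 to 1 sterol genes (Stard4 without shCTR A, Ebp without shCTR B) and 78 to 1399 genes (1399 without shCTR A, 828 without shCTR B, 114 without shMettl14 A and 78 without shMettl14 B). The median difference of the 33 genes ranged from -0.093 to 0.073 when each library in turn was left out, above 0 without shCTR A, and was -0.08 without genes that have near-identical copies. Idi1 crossed 0 with upper-quartile factors (0.0090), without the filter (0.0065), with at least 10 counts in every library (0.00062) and with the block (0.014), and Hsd17b7 with upper-quartile factors (0.0072). Leaving out a library turned the direction of 22 genes, with these ranges of log2 fold change: Hmgcs1 -0.26 to 0.17, Mvk -0.55 to 0.15, Pmvk -0.48 to 0.012, Mvd -0.47 to 0.22, Idi1 -0.30 to 0.36, Sqle -0.16 to 0.23, Tm7sf2 -0.49 to 0.88, Hsd17b7 -0.0774 to 0.0518, Ebp -0.81 to 0.20, Sc5d -0.30 to 0.0798, Dhcr7 -0.81 to 0.0319, Srebf1 -0.62 to 0.42, Srebf2 -0.18 to 0.10, Scap -0.42 to 0.33, Insig1 -0.12 to 0.18, Insig2 -0.0724 to 0.39, Npc1 -0.52 to 0.0555, Npc2 -0.33 to 0.21, Mylip -0.21 to 0.30, Soat1 -0.21 to 0.0575, Fasn -0.13 to 0.0408 and Scd1 -0.26 to 0.0571. The direction of the other 11 held in all 4 such fits; the cause was not tested. With 1 library left in a group, its spread is assumed to equal that of the other group. With 2 libraries a group, edgeR without the block did not call even Mettl14, which DESeq2 called, so an uncalled sterol gene is not shown to be level.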
